A study of Mus musculus with 24 samples.

Results

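The transcripts of 10 genes of insulin signalling and of the glucose transporter GLUT4 were followed in inguinal white adipose tissue, the fat depot under the skin of the groin, of mice. The genes were Insr, Irs1, Irs2, Grb14, Pik3r1, Akt2, Tbc1d4, Slc2a4, Trarg1 and Foxo1. They were picked by name for their place in the pathway, with earlier results of these data known. Each was found by symbol in the deposited table and tested on the row with the same Ensembl identifier. They are 10 of 17541 genes in the table, and all 10 were among the 15939 genes that passed the filter on low counts. The lowest count of any of them in any library was 228.

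The samples came from 24 wild-type C57BL/6J mice, each with its own label, and the series title says that the mice ate a high-fat diet. There were 7 Young CTRL mice and 6 Young BAM15 mice, both 16 weeks old, and 6 Aged CTRL mice and 5 Aged BAM15 mice, both 92 weeks old. The submitters name Young CTRL as the reference. BAM15 is a chemical uncoupler of mitochondria, under which fuel is burned without making ATP. Its dose and duration, the content of the control treatment and the sex of the mice are not given in the labels.

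Insulin binds its receptor, INSR, which phosphorylates the adaptors IRS1 and IRS2. These recruit phosphatidylinositol 3-kinase, the lipid it makes activates the kinase AKT2, and AKT2 switches off TBC1D4, a brake on the vesicles that carry GLUT4. In fat cells the released vesicles bring GLUT4 to the surface and glucose enters, while AKT also keeps the transcription factor FOXO1 out of the nucleus. Much of this control acts on proteins, which were not measured.

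Library totals ran from 8.62 to 21.9 M counts. The 10 genes fixed as adipocyte markers, among them Adipoq and Plin1, were all detected, and together they reached between 26508 and 98444 CPM in every library, where CPM is the counts of a gene per M library counts after normalisation. Adipoq alone ran from 1390 to 6196 CPM. Skeletal muscle markers (10 of 10 tested) summed to 30.2 to 60259 CPM in Young CTRL, 29.9 to 66041 in Young BAM15, 23.2 to 23916 in Aged CTRL and 182 to 10195 in Aged BAM15. B cell markers (8 of 8 tested) summed to 1.10 to 295 CPM, 1.92 to 1056, 4.96 to 209 and 1.61 to 262 in the same order, with medians of 2.97, 336, 8.72 and 137. Cd79a, a defining B cell gene, was at 0 in at least 1 library of each group, and no marker of either list was at 0 in all libraries. Macrophage markers (8 of 8 tested) had median sums of 720 CPM in Young CTRL, 978 in Young BAM15, 1302 in Aged CTRL and 773 in Aged BAM15. The ranges of the groups overlapped. Aged CTRL, with the highest median, is shared by the age comparison and that of BAM15 in aged mice. The part of macrophages in the levels of the 10 genes was not tested. In bulk tissue, fewer cells of a type and less RNA per cell cannot be told apart. The mitochondrial transcript mt-Rnr2 held under 0.5% of counts in 4 libraries that stood apart from the other 20. They were Young CTRL 4, Aged CTRL 2, and the Aged BAM15 libraries 2 and 5, and any log2 change printed for a named gene that moved by over 1.5 times or turned its sign without them is given both ways. They leave 6, 6, 5 and 3 mice in Young CTRL, Young BAM15, Aged CTRL and Aged BAM15.

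**Figure D1:**
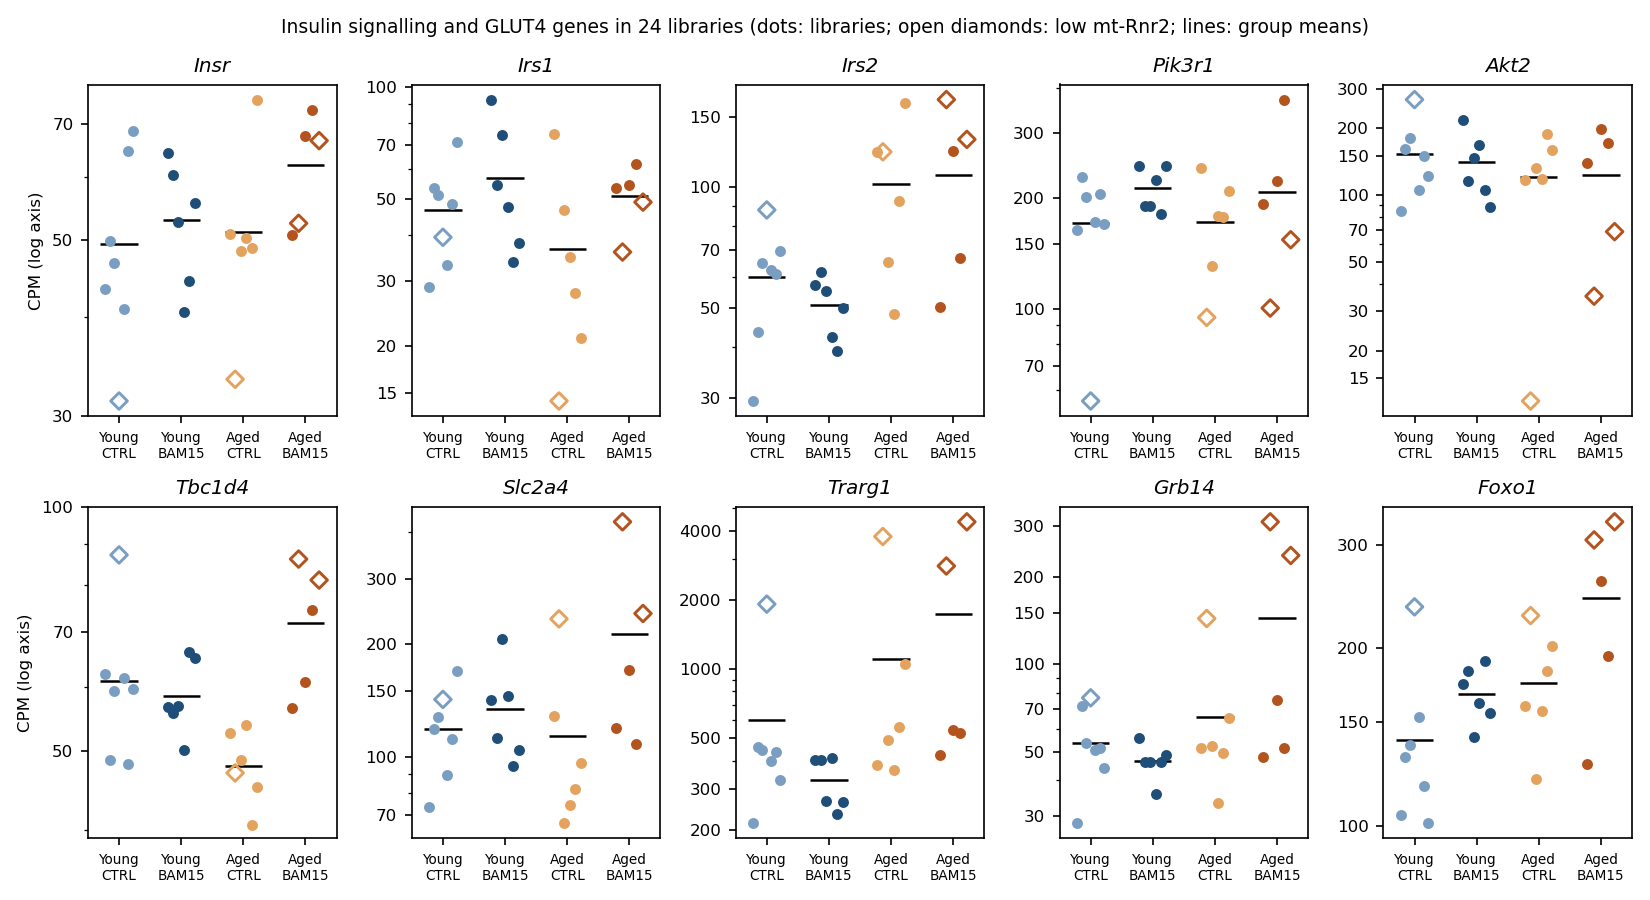
Expression in CPM (log axis) of the 10 genes in each library, by group. Points are libraries, open diamonds are the 4 libraries with low mt-Rnr2 and lines are arithmetic group means. For Trarg1 the 4 diamonds lie at 1916 to 4367 CPM and the other 20 points at 214 to 1054 CPM.

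In aged mice all 10 transcripts had positive log2 changes with BAM15, with a median of 0.48, against 8246 positive of 15939 genes (51.7%) and a median of 0.02 over all genes tested. The sizes ran from 0.02 for Akt2 to 1.13 for Grb14. None of the 10 passed edgeR's quasi-likelihood test with Benjamini-Hochberg adjustment over all genes, and neither did any other gene (percent of genes called 0). At an unadjusted p under 0.05 there were 3 of the 10, all higher with BAM15 (Tbc1d4, Slc2a4 and Grb14), against 718 genes (4.5%) in that direction. The DESeq2 Wald test called 1 of the 10, Tbc1d4, at an adjusted p of 0.0484, against 140 genes (0.804%) of the table, and limma-voom called 0 of the 10 against 964 genes (6.05%). With the 4 libraries left out, 8 of 10 were positive with a median of 0.24, against 51.4% of all genes and a median of 0.02. Irs2 and Trarg1 were negative. Tbc1d4, Slc2a4 and Pik3r1 then had an unadjusted p under 0.05, against 1861 genes (11.2%), and edgeR called no gene (0%).

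With age, 6 of 10 transcripts were higher and 4 lower in Aged CTRL than in Young CTRL, against 7407 of 15939 genes (46.5%) higher. The median log2 change of the 10 was 0.03, against -0.04 over all genes tested. None was called with edgeR, against 33 genes (0.207%) of the table. At an unadjusted p under 0.05 there were 2 of the 10, Irs2 higher and Tbc1d4 lower, against 727 genes (4.56%) higher and 616 (3.86%) lower. DESeq2 and limma-voom also called 0 of the 10, against 271 genes (1.59%) and 147 genes (0.922%). In the other 20 libraries the unadjusted count was 3 of 10, namely Irs2, Trarg1 and Foxo1, all higher with age, against 1845 genes (11.1%), and edgeR called none of the 10 against 79 genes (0.477%).

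In young mice the 10 transcripts split evenly, 5 higher and 5 lower with BAM15, against 8404 of 15939 genes (52.7%) higher. Their median log2 change was 0.02, against 0.03 over all genes tested. No gene of the table was called with edgeR in this comparison (0%), and 0 of the 10 had an unadjusted p under 0.05, against 2081 genes (13.1%). DESeq2 and limma-voom called 0 of the 10 as well, against 218 genes (1.33%) and 679 genes (4.26%). In the other 20 libraries Foxo1 alone of the 10 had an unadjusted p under 0.05, with an adjusted p of 0.19, against 3235 genes (19.5%).

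The difference between the BAM15 effect in aged mice and that in young mice was positive for 9 of 10 genes, against 7570 of 15939 (47.5%), and the groups of both BAM15 comparisons were fitted together for it. None was called with edgeR, DESeq2 or limma-voom. Over the table edgeR and limma-voom called no gene (0%) and DESeq2 called 38 (0.218%). At an unadjusted p under 0.05 there were 2 of the 10, Tbc1d4 and Grb14, against 809 genes (5.08%), and 0 without the 4 libraries, against 570 genes (3.44%). The difference was positive for 8 of 10 genes without the 4 libraries, against 49.9% of all genes.

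**Figure D2:**
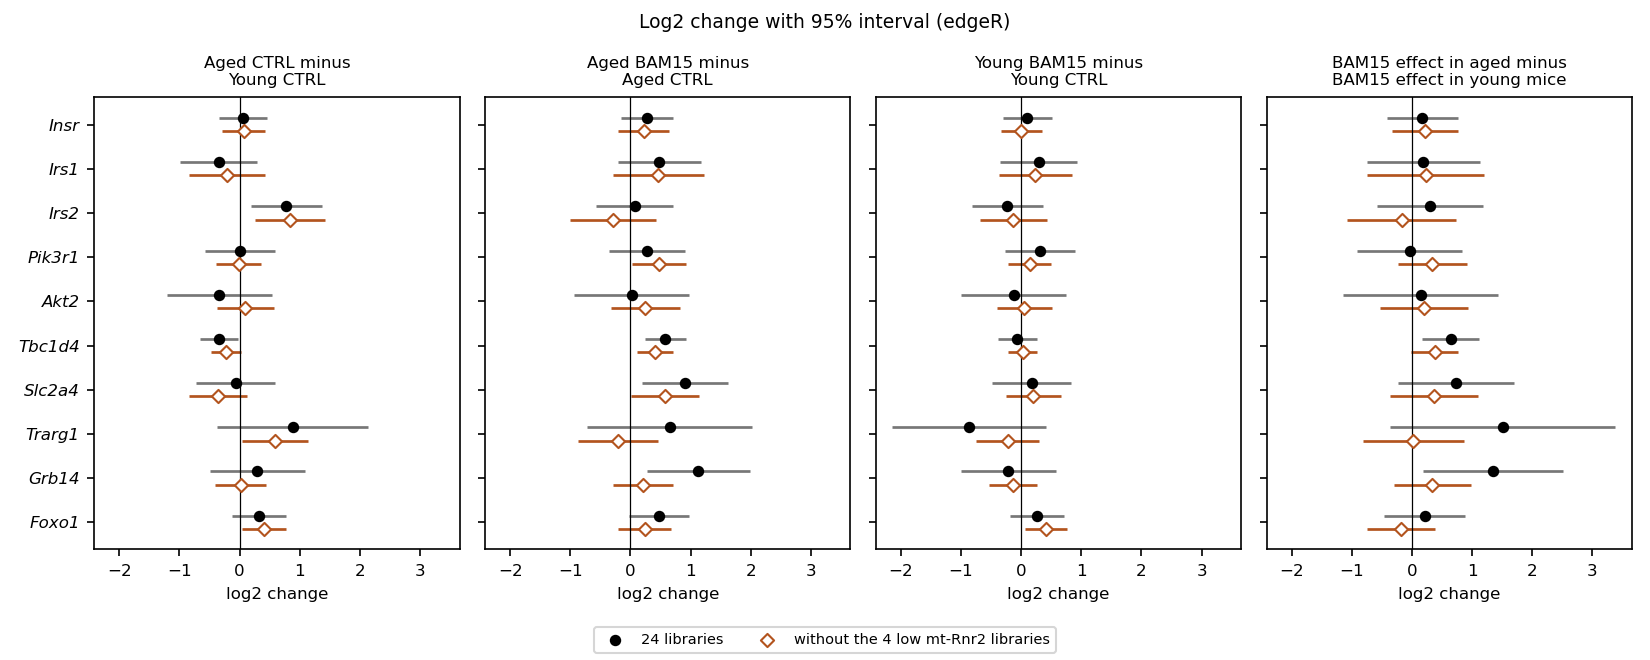
Log2 change of each gene with its 95% interval from edgeR in the 4 comparisons, over all 24 libraries (filled circles) and with the 4 low mt-Rnr2 libraries left out (open diamonds). In the panel for aged mice with BAM15 the circle of Grb14 lies at 1.13 and its diamond at 0.21, whereas Tbc1d4 lies at 0.58 and 0.41.

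Insr encodes the insulin receptor (chr8:3122061-3279617, minus strand, GRCm38). Its expression was 49.3 ± 13.2 CPM (SD, n = 7) for Young CTRL, 52.9 ± 9.14 CPM (SD, n = 6) for Young BAM15, 51.2 ± 13.5 CPM (SD, n = 6) for Aged CTRL and 62.1 ± 9.89 CPM (SD, n = 5) for Aged BAM15. The 5 Aged BAM15 mice had 50.7, 52.5, 67.6, 72.9 and 66.7 CPM, and Aged CTRL ran from 33.4 through a median of 49.6 to 75.1 CPM. The groups overlapped, and the single highest library was Aged CTRL 6. Its log2 change was 0.05 ± 0.20 (SE) with age and 0.28 ± 0.21 with BAM15 in aged mice, with edgeR adjusted p of 0.985 and 0.734. In young mice it was 0.10 ± 0.20 (adjusted p = 0.872), and -0.00081 without the 4 libraries.

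Irs1 and Irs2 encode the adaptors through which the receptor reaches phosphatidylinositol 3-kinase, and Irs2 is a known target of FOXO factors. Their promoters are shown because the log2 changes of these paralogous genes with age had opposite signs, neither past the test, and because both windows hold the same pair of motifs side by side. Tbc1d4 is shown with them as the gene with the lowest unadjusted p of the 10. Each RefSeq window runs from 250 bases before to 50 after the start site on the minus strand of GRCm38.p6, at chr1:82291390-82291689 for Irs1, chr8:11008880-11009179 for Irs2 and chr14:101609142-101609441 for Tbc1d4. Capitals mark the motifs searched on both strands, namely TGTTTAC (forkhead), TGTTTTG (insulin response), CACGTG (E-box), GGGCGG (GC box) and CCAAT.
Irs1: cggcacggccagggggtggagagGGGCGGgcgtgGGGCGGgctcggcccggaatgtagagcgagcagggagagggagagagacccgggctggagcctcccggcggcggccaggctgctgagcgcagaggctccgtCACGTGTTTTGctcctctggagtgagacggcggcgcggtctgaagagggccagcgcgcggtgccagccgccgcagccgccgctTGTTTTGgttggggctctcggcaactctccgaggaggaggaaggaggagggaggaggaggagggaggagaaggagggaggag
Irs2: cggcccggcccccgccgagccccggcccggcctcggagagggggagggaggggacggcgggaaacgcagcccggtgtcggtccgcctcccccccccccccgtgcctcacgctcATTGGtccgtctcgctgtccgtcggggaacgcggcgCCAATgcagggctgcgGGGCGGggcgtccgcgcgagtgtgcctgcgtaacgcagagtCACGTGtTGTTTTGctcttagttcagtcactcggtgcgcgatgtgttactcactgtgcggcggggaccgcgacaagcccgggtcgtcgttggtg
Tbc1d4: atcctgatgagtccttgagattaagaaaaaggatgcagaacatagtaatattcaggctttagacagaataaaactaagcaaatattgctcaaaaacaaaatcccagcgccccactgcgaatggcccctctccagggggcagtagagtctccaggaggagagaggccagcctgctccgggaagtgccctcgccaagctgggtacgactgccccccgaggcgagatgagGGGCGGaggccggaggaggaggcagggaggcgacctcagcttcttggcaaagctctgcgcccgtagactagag
The E-box began at position -115 in Irs1 and -44 in Irs2, counting the start site as 0, and an insulin response motif followed it at -111 and -37. In Irs1 these matches overlap by the letters TG, and a further insulin response motif lay at -32. The Irs2 window lies wholly upstream of the Irs2 gene as GENCODE places it, with its 5' end at 11008458. The Irs2 positions therefore hold for the RefSeq start site only. The E-box was in 7.17% and the insulin response motif in 6.32% of 32544 RefSeq promoter windows of the same length, and among the genes studied each was in Irs1 and Irs2 but in none of the other 5 with an entry. These 7 genes have 11 windows in all, since Pik3r1 has 2 and Akt2 has 4. The GC box was in 35.9% of all windows and in 7 of these 11, CCAAT in 37.4% and in 4 of 11, and TGTTTAC in 3.66% and in 0 of 11. The GC content was 71.3% for Irs1, 72.0% for Irs2 and 55.7% for Tbc1d4, against a median of 53.0% over all windows. The number of CpG pairs was 28, 41 and 12, against a median of 7. Entries were found for Irs1, Irs2, Pik3r1, Akt2, Tbc1d4, Grb14 and Foxo1. A match is a description of letters and not evidence of binding.

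Irs1 (chr1:82233101-82291416, minus strand) was at 46.5 ± 14.3 CPM (SD, n = 7) for Young CTRL, 56.9 ± 22.7 CPM (SD, n = 6) for Young BAM15, 36.6 ± 21.9 CPM (SD, n = 6) for Aged CTRL and 51.0 ± 9.68 CPM (SD, n = 5) for Aged BAM15. Aged CTRL held both the lowest library of all 24, Aged CTRL 2 at 14.3 CPM, and the second highest, Aged CTRL 1 at 75.0 CPM. The 5 Aged BAM15 mice had 53.5, 35.9, 54.3, 62.3 and 49.0 CPM and lay inside that range. With age the log2 change was -0.35 ± 0.31 (SE), and with BAM15 in aged mice 0.48 ± 0.34, with edgeR adjusted p of 0.883 and 0.705. Without the 4 libraries, Aged CTRL 2 among them, the age difference was -0.21 ± 0.30. In the annotation the antisense gene Gm9747 covers the stretch from 82233112 to 82235933 near the 3' end of Irs1. The strand setting of the counting is not given in the sources used here, so reads of both genes cannot be told apart.

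Irs2 (chr8:10984681-11008458, minus strand) was the member with the lowest unadjusted p in the age comparison. It ran from 29.4 through a median of 62.4 to 87.9 CPM in Young CTRL and from 48.4 through 107 to 162 CPM in Aged CTRL, and 5 of 6 Aged CTRL mice were above the Young CTRL mean. The means were 59.8 ± 18.7 CPM (SD, n = 7) and 102 ± 41.9 CPM (SD, n = 6), a 1.71-fold ratio in the fit. The groups overlapped, since Aged CTRL 3 and 4 lay within the range of the young mice. The log2 change was 0.77 ± 0.29 (SE, unadjusted p = 0.0124, adjusted p = 0.363, edgeR), and over the 25 settings tried it stayed between 0.59 and 0.92 with adjusted p from 0.212 to 0.786. Leaving out the 4 libraries gave 0.84 ± 0.28, with an adjusted p of 0.226. The Aged BAM15 mice had 50.5, 165, 123, 66.7 and 132 CPM, close to the range of the Aged CTRL mice. The log2 change with BAM15 in aged mice was 0.07 ± 0.31 (adjusted p = 0.97) and -0.29 without the 4 libraries.

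Grb14 (chr2:64912476-65024987, minus strand) encodes an adaptor that binds the activated receptor and inhibits it. The Aged BAM15 libraries had 48.1, 311, 75.2, 51.6 and 238 CPM, and Aged CTRL ran from 33.2 through a median of 52.0 to 144 CPM. The 2 high values were those of Aged BAM15 2 and 5, which have low mt-Rnr2, as has Aged CTRL 2 at 144 CPM. Aged BAM15 1 and 4 lay near the median of the controls, and Aged BAM15 3 was the highest of the 20 libraries without low mt-Rnr2. The means were 145 ± 121 CPM (SD, n = 5) in Aged BAM15 and 66.0 ± 39.6 CPM (SD, n = 6) in Aged CTRL. The fitted log2 change was 1.13 ± 0.42 (SE, unadjusted p = 0.0118, adjusted p = 0.403, edgeR) over all libraries and 0.21 ± 0.24 (adjusted p = 0.795) without the 4. In young mice Grb14 was at 53.8 ± 16.4 CPM (SD, n = 7) for Young CTRL and 46.3 ± 6.47 CPM (SD, n = 6) for Young BAM15, a log2 change of -0.21 ± 0.38 (adjusted p = 0.86) that was -0.13 ± 0.19 without the 4 libraries. The difference of both BAM15 effects was 1.35 ± 0.57 (unadjusted p = 0.0257, adjusted p = 0.899) and 0.34 ± 0.31 without the 4 libraries.

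Pik3r1 (chr13:101680563-101768217, minus strand) encodes the regulatory subunit that docks phosphatidylinositol 3-kinase on the IRS proteins. It was at 171 ± 55.8 CPM (SD, n = 7) for Young CTRL, 213 ± 29.2 CPM (SD, n = 6) for Young BAM15, 172 ± 52.8 CPM (SD, n = 6) for Aged CTRL and 208 ± 102 CPM (SD, n = 5) for Aged BAM15. The Aged BAM15 libraries had 193, 100.4, 222, 371 and 154 CPM. Aged BAM15 4 was the highest of all 24 libraries and Young CTRL 4, at 56.1 CPM, the lowest. Its log2 change was 0.01 ± 0.28 (SE) with age, 0.27 ± 0.31 with BAM15 in aged mice and 0.31 ± 0.28 with BAM15 in young mice, with edgeR adjusted p of 1.00, 0.838 and 0.669. All 6 Young BAM15 mice were above the Young CTRL mean, but 3 of 6 were above the mean of 190.2 CPM that the Young CTRL mice had without Young CTRL 4. With the 4 libraries left out, the change was 0.14 ± 0.17 with BAM15 in young mice, -0.02 ± 0.18 with age, and 0.48 ± 0.22 (unadjusted p = 0.037, adjusted p = 0.416) with BAM15 in aged mice.

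Akt2 (chr7:27591552-27640826, plus strand) encodes the AKT isoform that carries the insulin signal to GLUT4 in fat and muscle. Aged CTRL ran from 11.9 through a median of 125 to 188 CPM, and the Aged BAM15 mice had 139, 35.1, 199, 172 and 68.5 CPM. The 3 lowest of all 24 libraries were Aged CTRL 2, Aged BAM15 2 and Aged BAM15 5, and the highest was Young CTRL 4 at 269 CPM, so the libraries with low mt-Rnr2 took both ends. Its log2 change was -0.34 ± 0.42 (SE) with age, 0.02 ± 0.46 with BAM15 in aged mice and -0.13 ± 0.42 with BAM15 in young mice, with edgeR adjusted p of 0.937, 0.995 and 0.937. In the other 20 libraries the 3 values were 0.10, 0.25 and 0.05. With the B cell marker score as a covariate, a setting chosen after the data were seen, the change in young mice was 0.31.

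Tbc1d4 (chr14:101442360-101609191, minus strand), also called AS160, encodes the Rab GTPase-activating protein that holds GLUT4 vesicles back until AKT phosphorylates it. The Aged BAM15 mice had 56.5, 86.2, 60.8, 74.5 and 81.2 CPM, and Aged CTRL ran from 40.6 through a median of 47.9 to 53.8 CPM. Every Aged BAM15 library was above every Aged CTRL library, the only case without overlap among the 10 genes in any of the 3 group comparisons. Of all genes tested, 67 (0.42%) lay apart in that direction and 113 (0.709%) in either. With age 0.489% and with BAM15 in young mice 1.19% of genes lay apart. The means were 71.8 ± 12.8 CPM (SD, n = 5) and 48.0 ± 4.90 CPM (SD, n = 6). This was a log2 change of 0.58 ± 0.17 (SE, unadjusted p = 0.00198, adjusted p = 0.269, edgeR), with adjusted p from 0.048 to 0.762 over the 23 settings tried. Over the other 20 libraries it was 0.41 ± 0.15 (adjusted p = 0.341), and the remaining 3 mice were still above the remaining 5, as 7.39% of genes were in one direction or the other. It was 0.57 with the B cell score and 0.58 with the skeletal muscle score as a covariate.

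Young CTRL ran from 48.2 through a median of 59.6 to 87.2 CPM of Tbc1d4, and all 6 Aged CTRL mice were below the Young CTRL mean of 61.0 ± 13.0 CPM (SD, n = 7). The age difference was -0.35 ± 0.16 (SE, unadjusted p = 0.0358, adjusted p = 0.538, edgeR), and -0.23 ± 0.12 without the 4 libraries. Young BAM15 was at 58.5 ± 6.10 CPM (SD, n = 6), a log2 change of -0.06 ± 0.16 from Young CTRL (adjusted p = 0.912), and of 0.03 ± 0.12 without the 4 libraries. The difference between the BAM15 effects in aged and young mice was 0.64 ± 0.23 (unadjusted p = 0.00965, adjusted p = 0.899) and did not pass, and it was 0.38 ± 0.19 without the 4 libraries. The age comparison and the comparison of BAM15 in aged mice share the Aged CTRL libraries, so their values for a gene are not independent.

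Slc2a4 (chr11:69942539-69948188, minus strand) encodes GLUT4, the insulin-responsive glucose transporter of fat and muscle. The Aged BAM15 mice had 119, 426, 171, 108 and 242 CPM, and Aged CTRL ran from 66.5 through a median of 89.3 to 234 CPM. The 2 highest libraries of all 24 were Aged BAM15 2 and 5, the third was Aged CTRL 2, and the groups overlapped. The means were 213 ± 130 CPM (SD, n = 5) and 114 ± 62.9 CPM (SD, n = 6), and 4 of 5 Aged BAM15 mice were above the Aged CTRL mean. The log2 change was 0.91 ± 0.35 (SE, unadjusted p = 0.0149, adjusted p = 0.42, edgeR), a 1.88-fold ratio, and 0.57 ± 0.27 (adjusted p = 0.442) without the 4 libraries. Leaving out Aged BAM15 2 alone gave 0.49, and leaving out Aged CTRL 2 alone gave 1.25, the latter with an adjusted p of 0.0669. GLUT4 is also made by muscle, and with the skeletal muscle score as a covariate the change was 0.83, against 0.91 with the B cell score.

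Young CTRL ran from 73.6 through a median of 119 to 170 CPM of Slc2a4 and Young BAM15 from 94.4 through 127 to 207 CPM. The highest library of each of these groups, Young CTRL 7 and Young BAM15 3, was also its group's highest in skeletal muscle markers. Over the 24 libraries, the r within groups of Slc2a4 with the mean log2 CPM of these markers was 0.19. The part of muscle cells in the level was not tested. The log2 change was 0.17 ± 0.32 (SE) with BAM15 in young mice and -0.07 ± 0.32 with age, with edgeR adjusted p of 0.865 and 0.986. Without the 4 libraries the age difference was -0.36 ± 0.23 (adjusted p = 0.617). The difference of both BAM15 effects was 0.73 ± 0.47 (adjusted p = 0.899), and 0.37 ± 0.35 without the 4 libraries.

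Trarg1 (chr11:76679808-76698664, plus strand) encodes a membrane protein of GLUT4 vesicles, enriched in fat, that takes part in their sorting. The Aged BAM15 mice had 424, 2806, 541, 528 and 4367 CPM, and Aged CTRL ran from 365 through a median of 525 to 3769 CPM. The 4 highest of all 24 libraries were the 4 with low mt-Rnr2, including Young CTRL 4 at 1916 CPM, and the next was Aged CTRL 6 at 1054 CPM. The means carried that spread, with 1733 ± 1780 CPM (SD, n = 5) for Aged BAM15 and 1104 ± 1330 CPM (SD, n = 6) for Aged CTRL. The log2 change with BAM15 was 0.65 ± 0.66 (SE) in aged mice and -0.86 ± 0.62 in young mice, with edgeR adjusted p of 0.818 and 0.573. In the other 20 libraries these values were -0.20 ± 0.32 and -0.22 ± 0.25. With age the log2 change was 0.88 ± 0.61 (adjusted p = 0.804) over all libraries and 0.59 ± 0.26 (unadjusted p = 0.035, adjusted p = 0.402) without the 4.

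Foxo1 (chr3:52268336-52353221, plus strand) encodes the transcription factor that insulin, through AKT, removes from the nucleus. The Aged BAM15 mice had 127, 305, 260, 194 and 328 CPM, and Aged CTRL ran from 120 through a median of 172 to 227 CPM. Of the 5 Aged BAM15 mice, 4 were above the Aged CTRL mean, and Aged BAM15 1 lay near the bottom of the range. Its log2 change was 0.48 ± 0.24 (SE, unadjusted p = 0.0592, adjusted p = 0.568, edgeR) over all libraries and 0.24 ± 0.21 without the 4. In young mice Foxo1 was at 140 ± 45.9 CPM (SD, n = 7) for Young CTRL and 168 ± 18.3 CPM (SD, n = 6) for Young BAM15, and all 6 treated mice were above the control mean. That log2 change was 0.26 ± 0.22 (adjusted p = 0.639), and 0.42 ± 0.17 (unadjusted p = 0.021, adjusted p = 0.19) when Young CTRL 4 and the 3 aged libraries with low mt-Rnr2 were left out. With age the log2 change was 0.32 ± 0.22 (adjusted p = 0.798) and 0.41 ± 0.18 (adjusted p = 0.374) without those libraries.

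**Figure D3:**
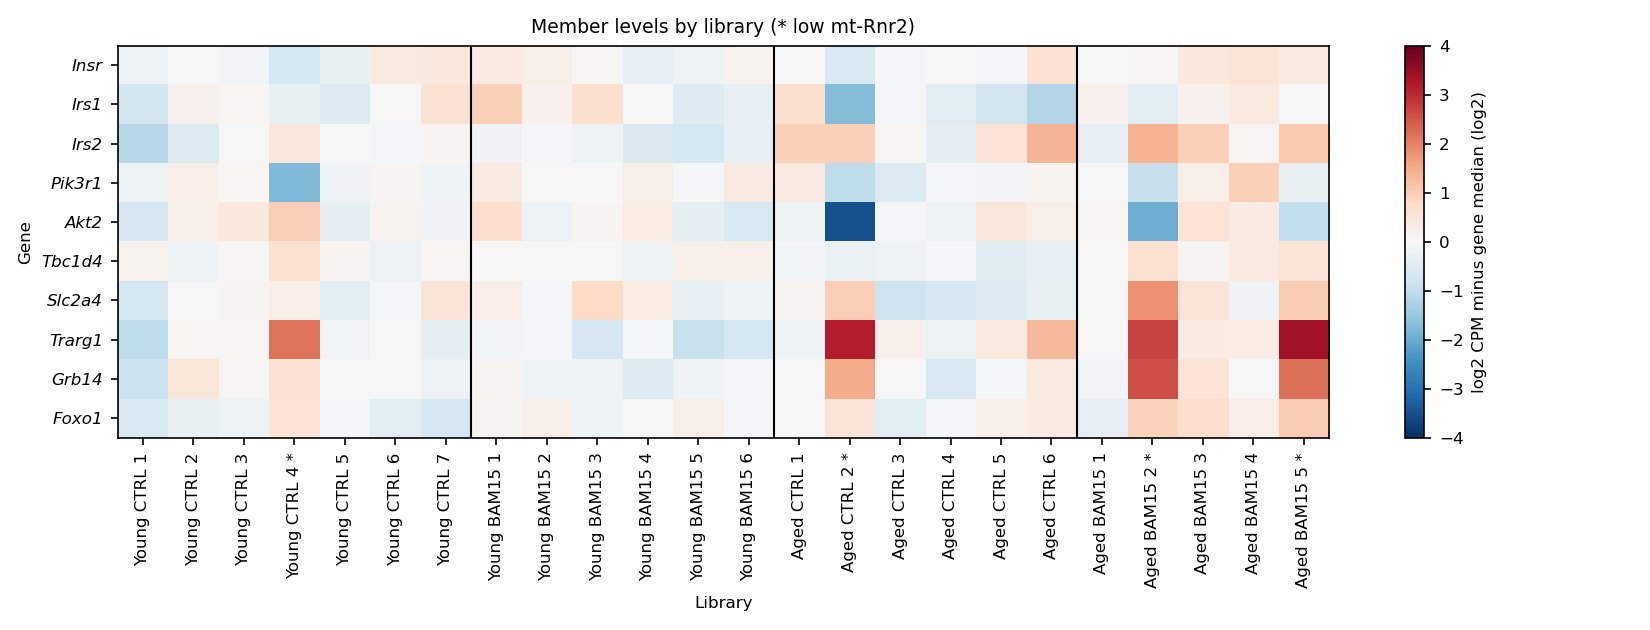
Log2 CPM of each gene minus its median over the 24 libraries (colour), by library in group order, with asterisks on the 4 libraries with low mt-Rnr2. In the marked columns Trarg1 and Grb14 are high, with Trarg1 at 1916 to 4367 CPM, and Pik3r1 is low at 56.1 to 154 CPM.

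Across groups, the mean was highest in Aged BAM15 for 7 of 10 genes, in Young BAM15 for Irs1 and Pik3r1, and in Young CTRL for Akt2. Neighbours in the order of group means were closer than the larger of their SDs, except for Irs2 between Young CTRL and Aged CTRL and Tbc1d4 between Aged CTRL and Young BAM15. The ratio of the highest to the lowest group mean was 1.24 for Pik3r1 and 1.26 for Insr at one end and 3.12 for Grb14 and 5.25 for Trarg1 at the other. Without the 4 libraries Aged BAM15 was highest for 6 of 10 genes, and the ratio was 1.26 for Grb14 and 1.73 for Trarg1.

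The genes were not alike in the libraries with low mt-Rnr2, and these values are given as a description with no test. Grb14 was at 76.7 to 311 CPM there and at 28.3 to 75.2 CPM in the other 20, with no overlap, as for Trarg1. How many of all genes lay apart in this way was not counted, so this is not shown to be particular to these genes. Slc2a4 was at 143 to 426 CPM against 66.5 to 207, Foxo1 at 227 to 328 against 101 to 260, and Irs2 at 87.9 to 165 against 29.4 to 162. Pik3r1 went the other way, at 56.1 to 154 CPM against 131 to 371. For Tbc1d4 the 4 libraries held 87.2, 47.0, 86.2 and 81.2 CPM, so that 3 of them were the highest of all and Aged CTRL 2 was among the lowest.

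Each gene was also set against the adipocyte markers of the same library, as its log2 CPM minus the mean log2 CPM of the 10 markers. The smallest p was again that of Tbc1d4 in aged mice, 0.57 higher with BAM15 by a two-sided exact permutation test (p = 0.00433, the smallest that 5 against 6 mice can give), with an adjusted p of 0.13 over 30 tests. Slc2a4 was 0.86 higher in the same comparison (exact permutation p = 0.0736, adjusted p = 0.362), and Foxo1 was 0.43 higher (exact permutation p = 0.0823, adjusted p = 0.362). With age Irs2 was 0.66 higher (exact permutation p = 0.0408, adjusted p = 0.362). With BAM15 in young mice Foxo1 was 0.56 higher (exact permutation p = 0.0425, adjusted p = 0.362). None of the 30 passed after adjustment. The differences in aged mice with BAM15 were also read over 14 other settings, leaving out the 4 libraries among them. They ran from 0.48 to 1.03 for Tbc1d4, 0.60 to 1.32 for Slc2a4 and 0.34 to 0.88 for Foxo1. The highest exact permutation adjusted p were 0.422, 0.51 and 0.521. Against Adipoq alone, Tbc1d4, Slc2a4 and Foxo1 were 1.03, 1.32 and 0.88 higher in aged mice with BAM15, each with an adjusted p of 0.0649. These values exceed those against the 10 markers because Adipoq, relative to these markers, was lower in Aged BAM15 than in Aged CTRL. This excess comes with the choice of reference. Against the 10 markers the 3 genes were still 0.57, 0.86 and 0.43 higher, and none passed after adjustment.

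The members were compared pair by pair in the 20 libraries without low mt-Rnr2, after subtracting group means, and 0 of 45 pairs passed after adjustment. Akt2 and Trarg1 had the smallest p, with Pearson's r = 0.67 and Spearman's rho = 0.71 (permutation adjusted p = 0.0689 and 0.0705), and r = 0.59 without the 2 libraries farthest from the median. For Irs2 and Grb14 r was 0.68 and rho 0.56 (permutation adjusted p = 0.0689 and 0.121), and r was 0.43 without the 2 farthest. The genes most like Slc2a4 over the 24 libraries, by r of log2 CPM within groups, were Gys1 (glycogen synthase) at 0.92, Selenow (a selenoprotein) at 0.91, Foxo4 (a FOXO factor) at 0.90, Ldha (lactate dehydrogenase) at 0.89 and Tef (a clock-controlled factor) at 0.88. All genes were read in the same libraries, of which 4 stand apart. Over the other 20 libraries the values were 0.87, 0.78, 0.77, 0.70 and 0.75. There the highest was Tead1 at 0.89, a gene looked up after its value was seen, whose r over 24 libraries was 0.02.

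The surrounding pathway was read from 4 lists of 85 further genes, of which 82 were tested, and Insrr, Irs4 and Igfbp1 were not. EdgeR called none of them in any comparison. With age 3 were higher and 3 lower at an unadjusted p under 0.05, against 4.56% and 3.86% of all genes tested. With BAM15 in aged mice 2 were higher and 3 lower, against 4.5% and 4.59% of all genes, and with BAM15 in young mice 5 were higher and 4 lower, against 6.18% and 6.88%. Without the 4 libraries 12, 8 and 14 of the 82 had such a p in either direction in these comparisons, against 11.1%, 11.2% and 19.5% of all genes. The median log2 change of the 82 was 0.08, 0.05 and 0.04 in these comparisons. Limma-voom called 6 in aged mice with BAM15, namely Deptor, Gga2, Mapkap1, Mlxipl, Rheb and Rictor, 3 of them higher and 3 lower, against 6.05% of all genes, and 2 in young mice, Enpp1 and Pik3cb, against 4.26%. DESeq2 called 1, Ptprf, in young mice, against 1.33% of all genes, and 0 in both other comparisons.

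**Figure D4:**
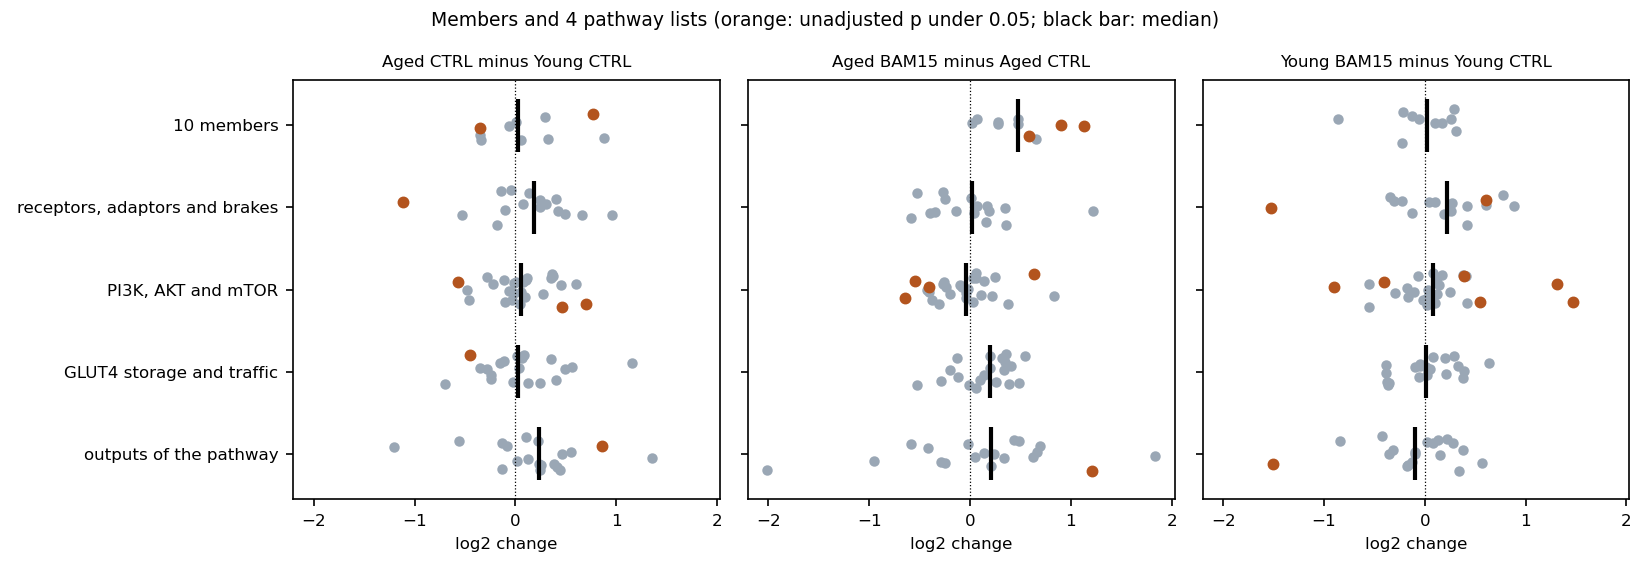
Log2 change of the 10 genes and of the 82 tested genes of 4 pathway lists in the 3 group comparisons. Dots are genes, orange dots have an unadjusted p under 0.05 and black bars are medians. In aged mice with BAM15 the bar of the 10 genes is at 0.48 and those of the lists run from -0.04 to 0.21.

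Of the receptors, adaptors and brakes (16 tested), 10 were higher and 6 lower with age, with a median of 0.19. Of all genes tested, 46.5% were higher with age. Ptprf, a receptor-type phosphatase that acts on the insulin receptor, had the smallest p at 44.7 ± 22.8 CPM (SD, n = 6) for Aged CTRL and 96.8 ± 104 CPM (SD, n = 7) for Young CTRL, a log2 change of -1.11 ± 0.44 (SE, edgeR adjusted p = 0.422). Irs3, an IRS adaptor of rodent fat, had 0.66 ± 0.35 (adjusted p = 0.642) and 0.34 without the 4 libraries, and Socs3, an inhibitor of cytokine and insulin signalling, had 0.49 ± 0.31 (adjusted p = 0.76). In aged mice with BAM15 9 of the list were higher and 7 lower, against 51.7% of all genes higher. The smallest p there belonged to Grb10, the relative of Grb14, with 0.36 ± 0.21 (adjusted p = 0.629), then to Cbl, a ubiquitin ligase, with -0.53 ± 0.35, and to Sh2b1, a receptor adaptor, with 1.22 ± 0.87 (adjusted p = 0.706). Without the 4 libraries Grb10 had 0.19 ± 0.24 and Sh2b1 had 0.51 ± 0.22 (adjusted p = 0.402, edgeR).

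Of the PI3K, AKT and mTOR genes (27 tested), 16 were higher and 11 lower with age, against 46.5% of all genes higher. Trib3, a pseudokinase that binds AKT, had a log2 change of 0.71 ± 0.25 (SE, edgeR adjusted p = 0.333), and Inpp5k, an inositol phosphatase, had 0.47 ± 0.18 (adjusted p = 0.415). Rictor, a core subunit of the mTOR complex that phosphorylates AKT, was at 21.2 ± 3.91 CPM (SD, n = 7) for Young CTRL, 14.3 ± 3.36 CPM (SD, n = 6) for Aged CTRL and 22.2 ± 6.60 CPM (SD, n = 5) for Aged BAM15. Its log2 change was -0.56 ± 0.22 with age (adjusted p = 0.402) and 0.63 ± 0.23 with BAM15 in aged mice (adjusted p = 0.404), and these comparisons share Aged CTRL. In aged mice with BAM15 11 genes of the list were higher and 16 lower, against 51.7% of all genes higher. Tsc2, an inhibitor of mTOR signalling, had -0.55 ± 0.24 (adjusted p = 0.496) and -0.30 ± 0.20 without the 4 libraries, and Deptor, an mTOR-binding inhibitor, had -0.64 ± 0.30 (adjusted p = 0.525).

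Of the GLUT4 storage and traffic genes (20 tested), 11 were higher with age and 14 with BAM15 in aged mice, where the median was 0.20. Of all genes tested, 46.5% and 51.7% were higher in these comparisons. Ralgapa2, a subunit of a Ral GTPase-activating complex, had -0.45 ± 0.21 (SE, edgeR adjusted p = 0.56) with age and 0.35 ± 0.23 (adjusted p = 0.682) with BAM15 in aged mice. Aspscr1, which encodes the GLUT4 tether TUG, had 1.16 ± 0.57 with age (adjusted p = 0.597), and -0.34 without the 4 libraries. The membrane fusion genes Stx4a, with age, and Vamp2 and Snap23, with BAM15 in aged mice, had 0.57 ± 0.29, 0.54 ± 0.32 and 0.35 ± 0.24, with adjusted p of 0.631, 0.64 and 0.697. In the other 20 libraries these values were 0.38, 0.39 and 0.05.

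Of the outputs of the pathway (19 tested), 14 were higher with age and 12 with BAM15 in aged mice, against 46.5% and 51.7% of all genes. Mlxipl, which encodes the carbohydrate-responsive factor ChREBP, was at 120 ± 41.8 CPM (SD, n = 5) for Aged BAM15 and 51.9 ± 34.4 CPM (SD, n = 6) for Aged CTRL. Its log2 change of 1.21 ± 0.34 (SE, unadjusted p = 0.00151, adjusted p = 0.257, edgeR) had the smallest p of the 82 genes in this comparison. The change was 1.31 (adjusted p = 0.214) without the 4 libraries, and edgeR called Mlxipl when Aged CTRL 2 alone was left out. Over the 11 fits with 1 library left out, edgeR called 0 to 1 of the 82 genes and 0 to 67 of all genes. Gys1, glycogen synthase, had 0.66 ± 0.35 (adjusted p = 0.598). Pdk4, a kinase that shuts off pyruvate oxidation and a known FOXO target, was at 7.64 ± 3.07 CPM (SD, n = 5) for Aged BAM15 and 30.9 ± 46.1 CPM (SD, n = 6) for Aged CTRL, with -2.01 ± 0.98 (adjusted p = 0.55). With age Foxo4 had 0.86 ± 0.37 (adjusted p = 0.496), Pdk4 1.36 ± 0.86 and Mlxipl 0.45 ± 0.31. Over the other 20 libraries Foxo4 had 0.33 and Mlxipl 0.18 with age.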

How the data were processed

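The authors deposited raw counts per Ensembl gene from 3' tag libraries (QuantSeq, per the labels), and a table of signal values, which equal those counts over a size factor of each library to within 6.05e-09 counts. R 3.4.3, DESeq2 1.18.1 and GRCm38 are named in the submitters' processing notes. Which aligner, counter and annotation they used is not given in the sources used here.

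Every result rests on the raw counts, and 0 columns were without a sample. TMM factors, filterByExpr and edgeR 4.0.16 quasi-likelihood F-tests (R 4.3.3, robust, group term, 20 residual degrees of freedom) were fitted to all 24 libraries over 15939 genes, with 1602 removed. A gene was called at a Benjamini-Hochberg adjusted p under 0.05, and the SE is the absolute log2 change over the square root of F. Log2 CPM used a prior count of 2. Depth limits the precision of low genes only, since the lowest count of a member was 228. The edgeR p values set each change against the variation between these mice, estimated with information shared over genes. Exact permutation p values come from rearranging mice between groups, and those of gene pairs from rearranging libraries within groups.

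The members and all lists were chosen with earlier results of these data known. Named were the 10 members, the 3 genes of each pathway list with the smallest p with age and with BAM15 in aged mice, called genes, and the 5 genes most like Slc2a4 among those of at least 5 CPM. Alternatives were other scaling and filters, DESeq2 1.42.0, limma 3.58.1 voom with quality weights, the compared groups alone, the replicate block, and each library left out. Of the tests, only the edgeR fit of the age comparison was tried on simulated data. Positions are from GENCODE M21 on GRCm38, and promoters from RefSeq.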

Additional observations from a re-analysis of the deposited data

Results flagged for a closer look

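Within each group, the highest and the lowest library of each of the 10 genes were compared with the gap to their nearest neighbour, in 40 sets of libraries. In 3 of the 40 sets 1 library lay far from the rest, near the share of about 1 in 20 that chance gives. The sets share the same 24 libraries, and the share over all genes was not counted. Pik3r1 was at 56.1 CPM in Young CTRL 4, against 163 to 229 CPM in the other Young CTRL mice. Trarg1 was at 1916 CPM in Young CTRL 4, against 214 to 456 CPM in the others. Akt2 was at 11.9 CPM in Aged CTRL 2, against 117 to 188 CPM in the other Aged CTRL mice. Both libraries have low mt-Rnr2, whose part in these values was not tested.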

How the results depend on the processing

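The number of the 10 genes called stayed at 0 in every setting tried except the DESeq2 Wald test in aged mice with BAM15, where it was 1 (Tbc1d4). The alternatives without the 4 libraries with low mt-Rnr2, without Young CTRL 1 and 7 (which hold skin keratin transcripts), and with a B cell or skeletal muscle score as a covariate were chosen after seeing the data. DESeq2 size factors and upper-quartile factors turned the sign of 0 of 40 changes of the 10 genes. The cause of the differences below was not tested.

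With age, 33 genes of the table were called, against 271 with DESeq2 (124 higher, 147 lower), 147 with limma-voom (112 higher, 35 lower), 18 with only the groups compared, 79 without the 4 libraries, 4 without Young CTRL 1 and 7, and 20 to 35 when 1 library was left out (21 without Aged CTRL 1 and 20 without Aged CTRL 6). With BAM15 in aged mice the count of 0 became 140 with DESeq2, 964 with limma-voom and 0 to 67 with 1 library left out (67 without Aged BAM15 1, 17 without Aged CTRL 2, 1 without Aged CTRL 5). In young mice it became 218 with DESeq2, 679 with limma-voom and 0 to 1 with 1 library left out, and for the difference of both BAM15 effects it became 38 with DESeq2. Genes of the pathway lists called with BAM15 were 6 with limma-voom and 0 to 1 with 1 library left out in aged mice, and 2 with limma-voom and 1 with DESeq2 in young mice.

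No pairing of the mice by replicate number was seen in expression, though such values alone cannot exclude one. Same-numbered libraries of different groups had a median correlation of deviations of -0.04 (33 pairs), other pairs 0.00 (182 pairs), and 3 of 24 libraries were most like their own number. With the replicate number as a block, 5 genes were called with age, the log2 change of Pik3r1 was -0.059 with age and 0.046 for the difference of both BAM15 effects, and that of Akt2 was -0.065 with BAM15 in aged mice. The block changed no call among the 10 genes.

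Signs of log2 changes turned in some settings, also for Trarg1 in aged mice with BAM15 (0.65 over all libraries) and Grb14 with age. The age change of Grb14 was 0.30 over all libraries and 0.015 without the 4. With age they were -0.071 for Pik3r1 and -0.18 for Grb14 with limma-voom, -0.018 for Pik3r1 and 0.096 for Akt2 without the 4 libraries, and -0.0059 for Pik3r1 without Young CTRL 1 and 7. With BAM15 in aged mice they were -0.29 for Irs2 and -0.20 for Trarg1 without the 4 libraries, and -0.030 for Akt2 with the muscle score. In young mice they were 0.041 for Tbc1d4 with limma-voom, -0.00081 for Insr, 0.051 for Akt2 and 0.029 for Tbc1d4 without the 4 libraries, and 0.31 for Akt2 with the B cell score. For the difference of both BAM15 effects they were 0.38 for Pik3r1 with limma-voom, -0.17 for Irs2, 0.34 for Pik3r1 and -0.18 for Foxo1 without the 4 libraries, and -0.0032 for Akt2 with the B cell score.

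With 1 library left out in turn, the age change ran from -0.089 to 0.15 for Insr, -0.14 to 0.13 for Pik3r1, -0.41 to 0.049 for Slc2a4, -0.071 to 1.54 for Trarg1 and -0.094 to 0.43 for Grb14. In aged mice with BAM15 it ran from -0.15 to 0.25 for Irs2, -0.040 to 0.43 for Pik3r1, -0.23 to 0.24 for Akt2 and -0.038 to 1.60 for Trarg1. In young mice it ran from -0.00067 to 0.20 for Insr, -0.33 to 0.068 for Akt2 and -0.11 to 0.047 for Tbc1d4. For the difference of both effects it ran from -0.35 to 0.15 for Pik3r1 and -0.098 to 0.40 for Akt2.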
